A study of Schizosaccharomyces pombe with 8 samples.

Results

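The long non-coding RNAs (lncRNAs) of fission yeast that had more read counts in the sequential Mmi1 and Mei2 pulldown than in its extract are described here. A member is a feature whose ID starts with SPNCRNA, the prefix of annotated non-coding RNAs, that had at least 50 read counts in each of the 4 whole cell extract (WCE) libraries. Its immunoprecipitate (IP) count also exceeded its WCE count of the same replicate number, ratio above 1, in both replicates of the TAP-Mmi1 strain. Meanwhile 5 lncRNAs, SPNCRNA.103, SPNCRNA.103L, SPNCRNA.130, SPNCRNA.1459 and SPNCRNA.1343, were set aside beforehand. The rule gave 96 members of 1528 SPNCRNA features, of which 1307 reached the count minimum, and of 6973 named features in all. Another 1206 lncRNAs reached the minimum without exceeding input in both replicates. Over all 6508 features with the count minimum, 3.47% exceeded input in both. Members were chosen by their TAP-Mmi1 ratios, so these are given as a description without a test.

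The libraries came from seqRIP-seq, in which RNAs bound by both proteins are retained by 2 successive immunoprecipitations and sequenced. The strain of interest carried kanMX::Pnmt41-TAP-Mmi1 and natMX::Pnmt1-3xFLAG-Mei2, and the negative control carried kanMX::Pnmt41-GFP-Mmi1 and natMX::Pnmt1-3xFLAG-Mei2. Both strains thus made Mmi1 from the mild nmt41 promoter and Mei2 from the strong nmt1 promoter instead of their own promoters, and no strain without FLAG-tagged Mei2 was compared here. Schizosaccharomyces pombe cells grew in minimal medium at 30 °C for 2 days to exponential phase and were crosslinked with 0.2% formaldehyde. Extracts were first bound to IgG through the TAP tag and eluted by TEV cleavage, and Mei2 in the eluate was then bound by anti-FLAG. The GFP tag has no IgG-binding part. Each strain gave 2 biological replicates of IP and WCE, 8 libraries in 4 groups.

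Mmi1 is a YTH-family protein that binds UNAAAC motifs in meiotic transcripts during mitotic growth and directs them to the nuclear exosome. Mei2 is an RNA-binding protein that drives entry into meiosis and counteracts Mmi1, and an RNA recognition motif of it binds short UU(U/G/A)G elements. Fission yeast lncRNAs include Mmi1 targets, antisense transcripts of coding genes and precursors of small nucleolar RNAs (snoRNAs).

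Sequences of 6 members, or of the strand opposite to them, are shown because they hold the densest UNAAAC motifs among the members outside annotated untranslated regions, or belong to strongly enriched members. Capitals mark the motif, and each 60-base stretch reads 5′ to 3′ in RNA letters from the RefSeq genome ASM294v3.
SPNCRNA.1197, its own strand (-), chrIII:1451790-1451849: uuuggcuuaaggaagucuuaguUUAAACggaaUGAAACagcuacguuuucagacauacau
SPNCRNA.243, its own strand (+), chrI:4232575-4232634: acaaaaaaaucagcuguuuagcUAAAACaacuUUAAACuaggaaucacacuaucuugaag
SPNCRNA.500, its own strand (+), chrIII:1728623-1728682: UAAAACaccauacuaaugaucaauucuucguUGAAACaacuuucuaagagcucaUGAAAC
SPNCRNA.1164, the opposite strand (-), chrIII:968041-968100: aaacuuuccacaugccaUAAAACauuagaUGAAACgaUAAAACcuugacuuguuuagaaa
SPNCRNA.1356, the opposite strand (-), in the coding sequence of mcp6, chrII:429596-429655: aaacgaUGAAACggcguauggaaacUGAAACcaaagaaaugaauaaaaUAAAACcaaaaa
SPNCRNA.1044, the opposite strand (-), in the coding sequence of mcp3, chrI:5076990-5077049: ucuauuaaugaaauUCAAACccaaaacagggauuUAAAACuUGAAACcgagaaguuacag

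A pair of short members is shown whole, because their control ratios, though below input, were among the highest of the members and neither holds a UNAAAC motif on its own strand. Here capitals mark UU(U/G/A)G, which SPNCRNA.475 lacks and which SPNCRNA.499, the snoRNA snR191, holds at 1 place.
SPNCRNA.475, 188 bases, strand +, chrIII:926437-926624: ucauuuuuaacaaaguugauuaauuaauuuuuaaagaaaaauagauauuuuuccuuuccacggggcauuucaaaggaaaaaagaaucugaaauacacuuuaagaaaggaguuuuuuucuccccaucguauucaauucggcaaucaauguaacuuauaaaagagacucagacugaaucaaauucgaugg
SPNCRNA.499, 128 bases, strand -, chrI:2735048-2735175: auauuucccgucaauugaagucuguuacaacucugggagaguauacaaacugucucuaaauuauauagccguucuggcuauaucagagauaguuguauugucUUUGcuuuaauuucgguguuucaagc

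Counts of named features summed to between 34415561 and 53703741 per library. Ribosomal RNA features took up to 82.0% of them in the TAP-Mmi1 IP, up to 96.4% in the control IP and up to 27.4% in the WCE, where rRNA had been depleted. Of the counts outside rRNA, members held 7.71% and 6.03% in the TAP-Mmi1 pulldowns and 2.96% and 4.83% in the control pulldowns. No WCE library reached above 0.356%. SPNCRNA.1235 and SPNCRNA.504 alone made up 28056 of 36942 and 56915 of 66366 member counts in the control pulldowns. Without these members the shares were 4.72% and 5.79% in the TAP-Mmi1 pulldowns and 0.712% and 0.688% in the control. The median count of the 96 members was 1016.5 and 1060 in the TAP-Mmi1 pulldowns but 29 and 28 in the control, so the control ratios of most members rest on few counts. In all, 9 members had no count in at least 1 GFP-Mmi1 IP library, and 31 had fewer than 10 in at least 1. Transcripts of meiotic and sporulating cells were also counted in the extracts. Of 6 sporulation markers, isp3, which encodes a spore surface protein, had the most, with 99101 to 153724 counts per WCE library. The fewest were those of mfr1, with 1661 to 2228. The part of these transcripts in the results was not tested.

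Members could be placed by locus tag for 83 of the 96, on the genome build whose gene ends matched those of the study's own feature table for 1715 of 1729 features compared (99.2%). Only 90 shared both ends, so the spans used by the authors may differ from those given here. Another 2 IDs are synonyms of listed members, SPNCRNA.532 of SPNCRNA.1696 and SPNCRNA.06 of SPNCRNA.1166, and 11 had no match. The unmatched SPNCRNA.507, SPNCRNA.514 and SPNCRNA.515 had counts within 0.664%, 4.73% and 7.65% of those of SPNCRNA.808, SPNCRNA.1490 and SPNCRNA.1651 in every library. The 96 IDs are therefore fewer than 96 independent RNAs, and the 83 placed members lie at 75 loci, of which 7 hold 15 members. RefSeq classes 77 of the placed members as lncRNA, 3 as snoRNA, 2 as other ncRNA and 1 as snRNA.

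Counts did not separate the strands. Among 78 pairs of features that lie on opposite strands and cover each other by at least 90%, 76 (97.4%) had a median gap between their counts of no more than 20%, against 9.61% of 385 pairs of neighbours of like length that do not overlap. The count of a lncRNA lying over another feature is then the count of both. Of the 83 placed members, 24 are covered by at least 50% by coding genes of the opposite strand, 7 by coding genes of the same strand and 13 by other non-coding features, and 39 lie apart.

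The mean TAP-Mmi1 IP/WCE ratio of the members ran from 1.03 to 18.1 with a median of 1.90, beside 0.190 for the other lncRNAs. In the GFP-Mmi1 strain the median was 0.0717 for the members and 0.0292 for the other lncRNAs. A mean ratio above 5 was reached by 10 members, and 54 stayed at or below 2. Replicate 2 gave the higher TAP-Mmi1 ratio in 71 members, and in 5 (SPNCRNA.1235, SPNCRNA.504, SPNCRNA.515, SPNCRNA.1651 and SPNCRNA.499) the replicates differed by more than 2-fold. Both TAP-Mmi1 ratios lay above both GFP-Mmi1 ratios in 94 members, which is read against 89.0% of all 6898 features with WCE counts, and the rule fixed the TAP-Mmi1 side. The exceptions were SPNCRNA.1235 and SPNCRNA.504.

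**Figure D1:**
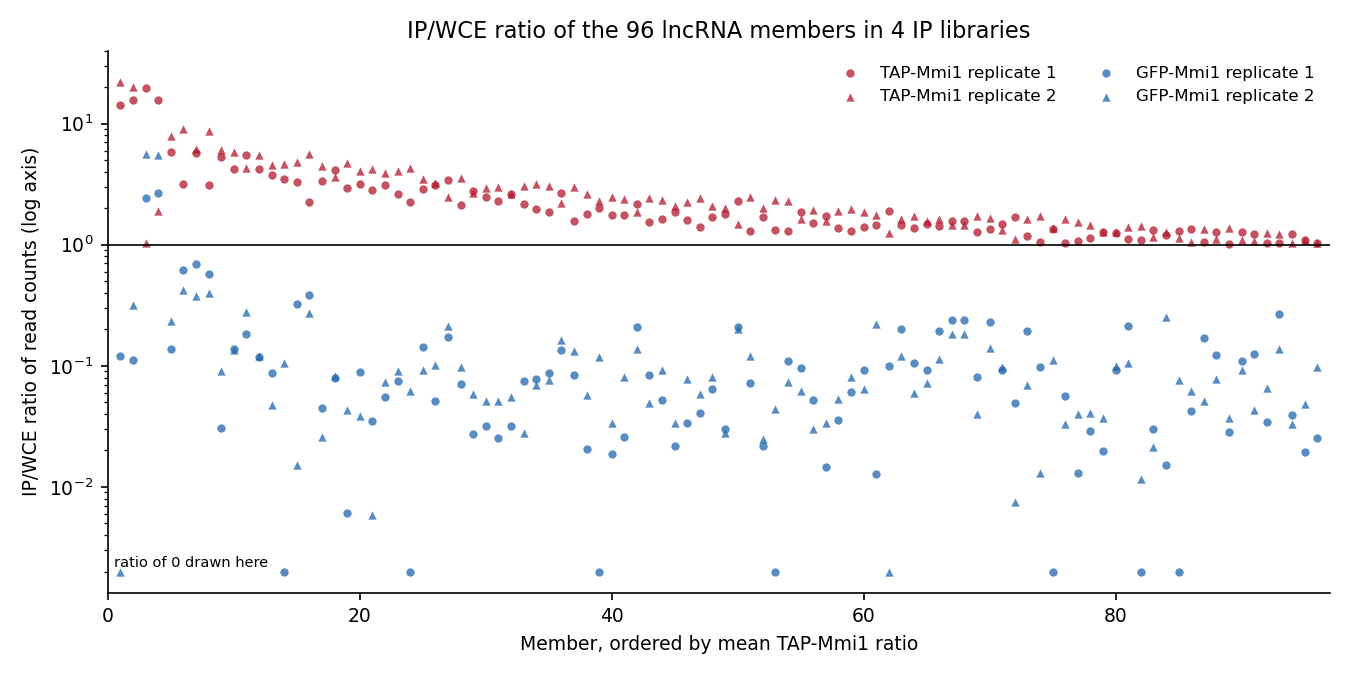
IP/WCE ratio of read counts for each of the 96 members, ordered by their mean TAP-Mmi1 ratio, on a log axis. Red points are the TAP-Mmi1 replicates and blue points the GFP-Mmi1 replicates (circles replicate 1, triangles replicate 2), and the line marks a ratio of 1; ratios of 0 are drawn at the bottom. Only SPNCRNA.504 and SPNCRNA.1235 have blue points above the line.

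The highest ratios belonged to a pair of lncRNAs covered by less than 50% by any other feature. SPNCRNA.1444 (chrII:1557726-1558047, strand -), 322 bases long, had 1724 IP counts against 122 WCE counts in TAP-Mmi1 replicate 1 and 1783 against 81 in replicate 2. In the GFP-Mmi1 strain it had 11 IP counts against 91 WCE counts, and 0 against 90. Both TAP-Mmi1 IP libraries were thus far above every other library, with a mean ratio of 18.1 ± 5.57 (SD, n = 2).

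SPNCRNA.1197 (chrIII:1451418-1452653, strand -) was more abundant. It had 66062 IP counts against 4194 WCE counts and 58395 against 2902 with TAP-Mmi1, compared to 244 against 2177 and 808 against 2542 in the control. The ratio was 17.9 ± 3.09 with TAP-Mmi1, compared to 0.215 ± 0.146 in the control (SD, n = 2), and the groups did not overlap. The stretch printed above holds 2 of its 4 UNAAAC motifs, and the opposite strand holds 9.

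SPNCRNA.504 and SPNCRNA.1235 ranked next by mean ratio and are described with their locus, and SPNCRNA.243 and SPNCRNA.405 are members of lower counts among the 10 highest. SPNCRNA.243 (chrI:4231812-4232976, strand +), which lies by 64.0% along hsp3105, had 985 IP counts against 169 WCE counts and 853 against 108 with TAP-Mmi1, compared to 18 against 132 and 35 against 148 in the control. Its TAP-Mmi1 ratio was 6.86 ± 1.46, whereas hsp3105 itself reached 0.839 and 1.57. SPNCRNA.405 (chrII:2728310-2728918, strand +), which lies apart and holds 5 motifs on its own strand and 0 on the other, had 1141 counts against 217 and 1007 against 165 with TAP-Mmi1, compared to 5 against 162 and 14 against 155 in the control. All 5 motifs lie within 609 bases, and the ratio was 5.68 ± 0.597 (SD, n = 2).

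SPNCRNA.1651 (chrII:3962699-3963115, strand +) was the most abundant member per kb in the WCE, with 9486 counts per kb, and SPNCRNA.515 had nearly its counts. It had 17610 IP counts against 5697 WCE counts and 42901 against 4893 with TAP-Mmi1, compared to 1443 against 2538 and 1237 against 3091 in the control. It is covered by 61.4% by sdh8, a succinate dehydrogenase assembly factor gene of the opposite strand, whose TAP-Mmi1 ratios were only 0.224 and 0.232. The other members among the 5 most abundant per kb were SPNCRNA.497 at 7450, SPNCRNA.100 at 7008, SPNCRNA.1511 at 4130 and SPNCRNA.566 at 3885 WCE counts per kb. Their TAP-Mmi1 mean ratios lay between 1.21 and 2.63.

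Several members are short, are named or classed as small RNAs, or overlap a snoRNA gene. RefSeq classes SPNCRNA.475 only as ncRNA. SPNCRNA.475 (188 bases, printed above) had 3264 IP counts against 571 WCE counts and 3952 against 635 with TAP-Mmi1, compared to 203 against 291 and 110 against 291 in the control. Its ratios of 5.97 ± 0.359 and 0.538 ± 0.226 (SD, n = 2) did not overlap. SPNCRNA.499, the snoRNA snR191 within the span of the ribosome assembly gene nog2, had 1048 against 465 and 2149 against 381 with TAP-Mmi1, compared to 178 against 466 and 132 against 483 in the control. The replicates of the TAP-Mmi1 strain were uneven, at 2.25 and 5.64, and the host nog2 stayed at 0.344 and 0.629.

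SPNCRNA.530, named sno530, had TAP-Mmi1 ratios of 3.27 and 4.83 and GFP-Mmi1 ratios of 0.322 and 0.0152, the second from 2 counts. SPNCRNA.497, the snoRNA-type RNA snR48 in the span of the ribosomal protein gene rps3, had 1.36 and 1.06, while rps3 had 0.0813 and 0.0705. SPNCRNA.498, annotated as a snoRNA, had 1.05 and 1.72. SPNCRNA.1483, of 1152 bases, overlaps the snoRNA snoZ30 on the same strand. Its ratios were 1.75 and 2.49, beside 2.48 and 3.00 for snoZ30.

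Several members lie opposite genes of meiosis, named here after seeing their values. SPNCRNA.1397 (chrII:897892-901405, strand -) and the shorter SPNCRNA.566 lie opposite SPBC216.02, known as mcp5 or num1, which anchors dynein to the cell cortex during the nuclear movement of meiotic prophase. SPNCRNA.1397 had 34513 and 29258 IP counts with TAP-Mmi1 and mcp5 had 34764 and 29605. In the control IP they had 298 and 523 against 304 and 524, and the WCE counts differed as little. The mean ratio was 2.71 ± 0.342 for SPNCRNA.1397 (SD, n = 2), with 2.49 and 3.03 for mcp5, so no separate level of the lncRNA can be read.

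Ratios were also close in 4 further pairs. SPNCRNA.1356 lies opposite mcp6, whose product organises microtubules at the spindle pole body in meiotic prophase, with ratios of 2.31 and 3.00 beside 2.42 and 3.27. SPNCRNA.1044 lies opposite mcp3, a meiotic coiled-coil protein gene, with 1.81 and 2.64 beside 1.85 and 2.63. SPNCRNA.1198 lies opposite jnm1, which encodes a dynactin subunit, with 3.12 and 3.88 beside 3.03 and 3.77. SPNCRNA.827 lies opposite meu26, a gene upregulated in meiosis, with a mean of 1.65 beside 1.70. By contrast, SPNCRNA.1452, which lies opposite mug124, a gene named for its upregulation in meiosis, had 1.57 and 2.99 beside 0.413 and 0.852.

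A coding gene covers a member by at least 50% from the opposite strand in 23 pairs. In 11 of these the gene was itself above input in both replicates, where mcp5 and ggc1 were each counted again for another member. In these 11 pairs the mean ratio of the lncRNA was 0.459 to 1.37 times that of the gene, with a median of 0.991. In the other 12 pairs the lncRNA had 1.16 to 52.1 times the ratio of the gene, with a median of 3.71. The rule put every lncRNA above input and this split put these genes outside it, so a higher lncRNA ratio was largely fixed in advance. Some members also cover only a small part of the gene, such as 3.00% of yea4 and 5.28% of SPCC320.06. SPNCRNA.1487, opposite mag2, also spans the snoRNA snR92, which had ratios of 3.52 and 2.62. The widest gap was that of SPNCRNA.1235 and gut2, a glycerol-3-phosphate dehydrogenase gene. Of the 8 coding genes that cover a member by at least 50% on the same strand, 0 were above input in both replicates. This is near the share of 3.47% among all features with the count minimum. The members cover only part of these genes, from 3.65% of ipa1 to 43.7% of hsp3105. An example is spo3, a gene of the forespore membrane, at 0.451 and 0.617 beside 1.27 and 1.73 for SPNCRNA.186.

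**Figure D2:**
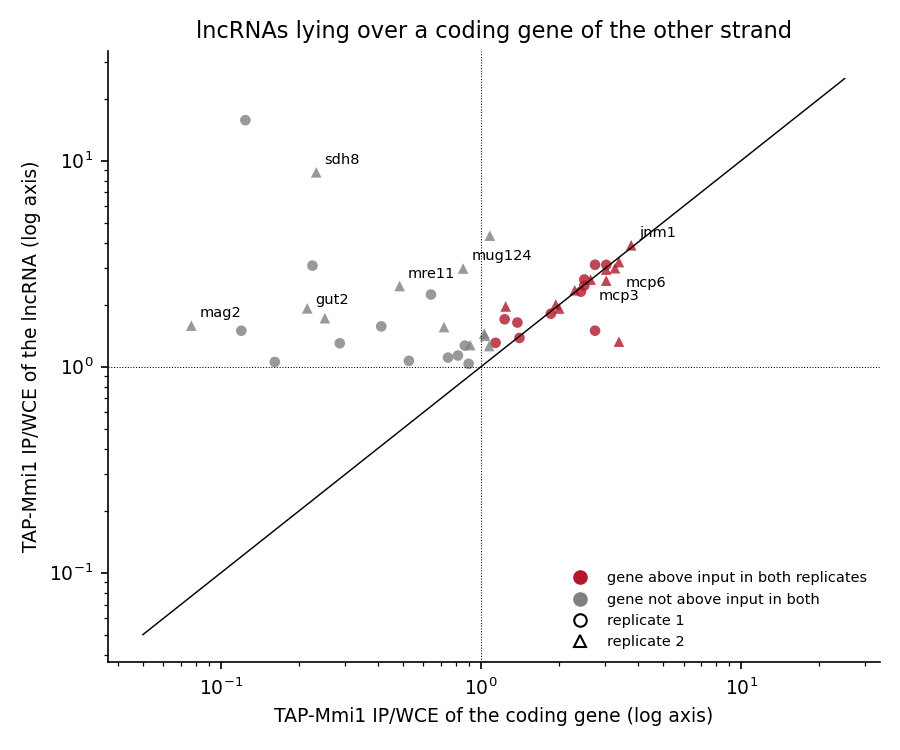
TAP-Mmi1 IP/WCE ratio of each lncRNA (y) against that of the coding gene covering it by at least 50% from the opposite strand (x), both on log axes, for 23 pairs. Circles are replicate 1 and triangles replicate 2. Red pairs, 11 in number, have a gene above input in both replicates and have mean ratios 0.459 to 1.37 times those of the gene. Grey pairs lie above the diagonal by 1.16 to 52.1 times, which the rule and this split largely fixed in advance.

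Some members lie opposite each other. SPNCRNA.626 and SPNCRNA.627, which overlap on opposite strands of chromosome I, had mean ratios of 2.61 and 3.61, and SPNCRNA.628, which overlaps 26.7% of SPNCRNA.626 on the opposite strand, had 1.56 and 2.44. SPNCRNA.919 had 1.76 and 2.39 and its opposite SPNCRNA.920 had 1.61 and 2.23, a difference smaller than that between replicates. For SPNCRNA.1604 the ratios were 3.35 and 4.43, above the mean of 1.72 for SPNCRNA.1605, which lies opposite to it. SPNCRNA.1057 had 1.18 and 1.62 and its opposite SPNCRNA.260 had 1.05 and 1.35.

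SPNCRNA.1626 (chrII:3626024-3631136, strand -), one of the longest members at 5113 bases, was also one of the most counted in the pulldown. It had 39197 IP counts against 19758 WCE counts and 46008 against 14543 with TAP-Mmi1, compared to 902 against 11489 and 845 against 12230 in the control. Its ratios of 1.98 and 3.16 lay above the 0.0785 and 0.0691 of the control strain. Of its length, 39.5% lies opposite mbx2, a MADS-box transcription factor gene with ratios of 2.58 and 4.10, so its count cannot be read apart from that of mbx2.

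Named members were spread over the range. The 2 IDs of nam3, SPNCRNA.1696 and SPNCRNA.532, a lncRNA named for its association with Mmi1, had mean ratios of 1.89 ± 0.151 and 1.99 ± 0.168 with TAP-Mmi1, compared to 0.0290 and 0.0279 in the control. SPNCRNA.1696 (chrII:4464625-4466286, strand -) had 9495 IP counts against 5316 WCE counts and 8076 against 4038 in the TAP-Mmi1 strain. The 2 IDs of prl6, SPNCRNA.1166 and SPNCRNA.06, were higher at 4.89 ± 0.885 and 5.01 ± 1.11, with 0.120 and 0.137 in the control. They lie inside SPNCRNA.1164, a member of the opposite strand that is 5123 bases long, with 2.62 and 4.07. SPNCRNA.23, named prl23, had 2.24 and 4.32 from at most 311 IP counts, and lncRNA584, over part of the RNA decay gene ski3 on the opposite strand, had 1.13 and 1.45 from 12774 and 10695 IP counts.

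SPNCRNA.1235 and SPNCRNA.504 differed from every other member. SPNCRNA.1235 (chrIII:1839787-1844115, strand +) had 125718 IP counts against 8007 WCE counts in TAP-Mmi1 replicate 1 but 9720 against 5071 in replicate 2, and 15950 against 6012 and 31813 against 5742 in the GFP-Mmi1 strain. Its ratios of 15.7 and 1.92 with TAP-Mmi1 overlapped those of 2.65 and 5.54 in the control. SPNCRNA.504, without a position, had 19.5 and 1.04 with TAP-Mmi1, compared to 2.43 and 5.59 in the control.

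SPNCRNA.1235 starts just downstream of nmt1, the thiamine-repressed gene whose promoters drive both tagged proteins, and overlaps by 7.07% the abundant SPNCRNA.1234, which spans nmt1. In the IP, SPNCRNA.1235 was 12.9 times higher in TAP-Mmi1 replicate 1 than in replicate 2. SPNCRNA.1234 was 8.99 times higher, nmt1 4.28 times and hel2 on the other side of nmt1 6.51 times. The tagged genes mmi1 and mei2 were 4.25 and 2.16 times higher, whereas gut2, which covers 61.5% of SPNCRNA.1235, was 0.922 times as high. In the control IP, replicate 2 exceeded replicate 1 by 1.99 times for SPNCRNA.1235, 1.96 times for mei2 and 2.14 times for mmi1. The excess was 1.70 times for SPNCRNA.1234, 1.31 times for nmt1, 1.79 times for hel2 and 1.22 times for gut2. The part of the tagged constructs in the counts of this locus was not tested, and the shares of counts and the control contrast are also given without this pair.

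**Figure D3:**
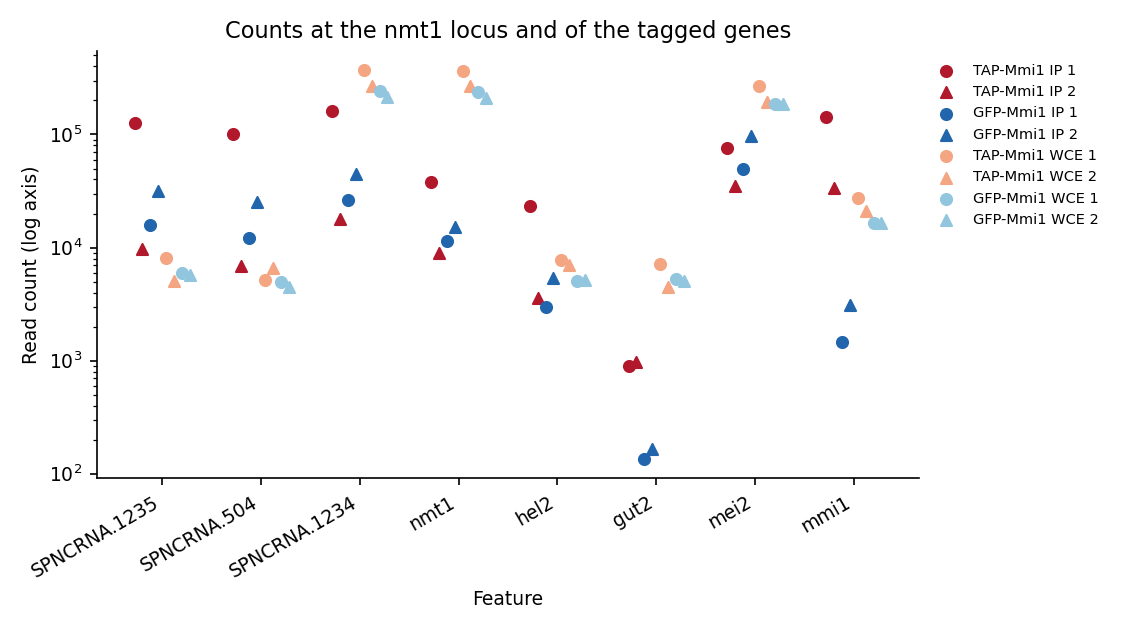
Read counts (log axis) of SPNCRNA.1235, SPNCRNA.504, their neighbours at the nmt1 locus and the tagged genes mei2 and mmi1 in the 8 libraries, with colour for strain and fraction and shape for the replicate. SPNCRNA.1235 runs from 5071 to 8007 counts in the WCE and from 9720 to 125718 in the IP libraries, while gut2 stays between 135 and 967 in the IP.

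Just inside the threshold were SPNCRNA.1676 with 1.03 and 1.03, SPNCRNA.72 with 1.02 and 1.36, and SPNCRNA.746 with 1.24 and 1.03. Just outside it were SPNCRNA.1110 with 0.992 and 1.92, SPNCRNA.830 with 0.989 and 1.37, and SPNCRNA.58 with 0.988 and 1.11. SPNCRNA.1110 lies opposite the member SPNCRNA.1111, which had 1.39 and 2.44.

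Levels of the members in the control IP against its WCE were compared on the GFP-Mmi1 libraries, which the rule did not use for its ratio. The paper names rRNA depletion for WCE and total RNA and not for the IP. Pulldown and library preparation therefore cannot be told apart in this contrast. After TMM scaling, a normalization that sets the typical feature to no change, 49 of the 96 members were higher in the GFP-Mmi1 IP than in its WCE and 0 were lower, where 11.1% of all 6827 features tested were higher and 6.44% lower (edgeR's quasi-likelihood test, Benjamini-Hochberg adjusted p under 0.05). The median log2 difference was 1.33 for the members, near 0 for all features and 0.03 for the other lncRNAs, of which 124 were higher and 67 lower. DESeq2 called 59 members higher and 0 lower, where it called 16.5% of all features higher and 13.5% lower, and 62 members had an unadjusted p under 0.05 in either direction by edgeR. Among 77 mRNAs above input in both TAP-Mmi1 replicates, 33 were higher, with a median of 0.88. The direction belongs to this scale, since by library totals, with rRNA included, all features had a median of -5.05, the members had -3.73 and 94 members were lower. The difference between the members and all features was 1.33 on the log2 scale by TMM and 1.32 by library totals.

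Without SPNCRNA.1235 and SPNCRNA.504, 47 of 94 members were higher. Among the 46 placed members covered by less than 50% on the opposite strand, 24 were (52.2%), and among the longest members of the 75 loci, 36 were (48.0%). Leaving out 1 replicate of 1 strain left a group with 1 library, and both the members and all features then had fewer calls. The median log2 difference of the members minus that of all features was 1.33 to 1.42 in these fits. By position, 11 of the 24 members opposite coding genes, 5 of the 7 along coding genes, 5 of the 13 over other non-coding features and 19 of the 39 lying apart were higher. Differences between these classes were not tested.

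Members with the largest differences in the control were SPNCRNA.1235 and SPNCRNA.504, at a log2 of 7.17 (adjusted p = 0.00731 by edgeR) and 7.13 (adjusted p = 0.00934). Neither call held by library totals (adjusted p = 0.166 and 0.187 by edgeR), with the culture as a block (adjusted p = 0.0879 and 0.179 by edgeR), or without either GFP-Mmi1 replicate, where adjusted p ranged from 0.0765 to 0.125. SPNCRNA.475 had a log2 difference of 4.23 ± 0.297 (SE, adjusted p = 0.000156 by edgeR), SPNCRNA.515 had 4.16 ± 0.404 (adjusted p = 0.000744) and SPNCRNA.1651 had 4.06 ± 0.399 (adjusted p = 0.000803). These 3 stayed past the threshold in the same direction under 8 of 9 alternatives, and library totals turned their direction.

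Among the members with the highest TAP-Mmi1 ratios, SPNCRNA.1197 rose by 2.99 ± 0.50 (adjusted p = 0.00764 by edgeR), a call lost without TAP-Mmi1 replicate 1 or 2 (adjusted p = 0.0723 and 0.0766). SPNCRNA.243 rose by 2.74 ± 0.352 (adjusted p = 0.00285 by edgeR) and SPNCRNA.06 by 2.26 ± 0.265 (adjusted p = 0.00189). SPNCRNA.405, at 1.08 ± 0.425, and SPNCRNA.1444, at 1.09 ± 0.787, did not pass the threshold (adjusted p = 0.122 and 0.377 by edgeR). SPNCRNA.405 passed it with DESeq2 (adjusted p = 0.0189) and without GFP-Mmi1 replicate 1 (adjusted p = 0.0448 by edgeR). The snoRNA SPNCRNA.499 rose by 3.51 ± 0.348 and SPNCRNA.1511 by 2.85 ± 0.233 (adjusted p = 0.000831 and 0.000325 by edgeR), whereas SPNCRNA.1696 (nam3) stood at 0.02 ± 0.117.

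At the other end, the lowest mean control ratios were those of SPNCRNA.1193 at 0.00578, SPNCRNA.1106 at 0.0203, SPNCRNA.1268 at 0.0218, SPNCRNA.100 at 0.0234 and SPNCRNA.335 at 0.0243. These ratios rest on few control IP counts, so their order is not read. SPNCRNA.1106 had 615 and 686 IP counts with TAP-Mmi1 against 6 and 1 with GFP-Mmi1. SPNCRNA.100, which lies opposite the iron transporter gene pcl1, had 2746 and 2718 against 29 and 32. Of the members opposite meiotic genes, SPNCRNA.1397 had a log2 difference of 0.57 and SPNCRNA.1356 of 0.46 in the control, neither past the threshold, while SPNCRNA.1198 rose by 1.19 ± 0.185 (adjusted p = 0.00573 by edgeR). The call of SPNCRNA.1198 was lost without TAP-Mmi1 replicate 1 or 2 (adjusted p = 0.0574 and 0.0704 by edgeR).

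**Figure D4:**
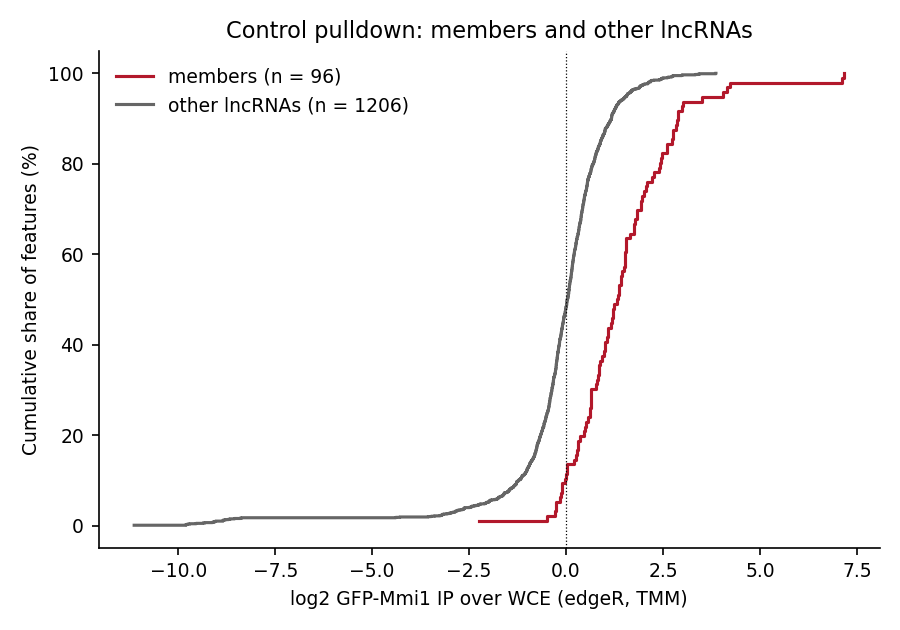
Cumulative share of features (y, %) by log2 difference between GFP-Mmi1 IP and WCE (x, edgeR after TMM), for the 96 members in red and the 1206 other lncRNAs in grey. The red curve lies to the right, with medians of 1.33 and 0.03, and 86 of 96 members lie above 0.

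In the extracts themselves, 0 members differed between the strains (edgeR, adjusted p under 0.05), with 16 at an unadjusted p under 0.05. Of all 6827 features 0.293% had higher levels in the TAP-Mmi1 extracts and 0.0586% lower levels. The rule used the TAP-Mmi1 WCE counts as the denominator of its ratio, which favours low values there, and all WCE libraries for the count minimum. These values are therefore a description. The log2 differences ran from -0.64 for SPNCRNA.530 to 0.84 for SPNCRNA.491, with a median of 0.13. DESeq2 called 3 members higher (SPNCRNA.144, SPNCRNA.1511 and SPNCRNA.1215) and SPNCRNA.1696 lower, at log2 values of 0.69, 0.82, 0.53 and -0.36, where it called 3.93% of all features higher and 1.53% lower.

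For the IP/WCE difference of TAP-Mmi1 minus that of GFP-Mmi1, 72 members were higher and 0 lower by edgeR, where 18.9% of all 6827 features were higher and 23.7% lower. The contrast contains the ratio that chose the members, so nothing is read from these counts. The median log2 difference was 2.59 in the members and 0.40 in the other lncRNAs. The values of SPNCRNA.1235 and SPNCRNA.504 were -0.94 and -1.12, and they became lower calls without TAP-Mmi1 replicate 1. Of 9 meiotic mRNAs known as Mmi1 targets (mei4, rec8, spo5, ssm4, mcp5, crs1, mug8, mug9 and mug10), 9 were higher with a median of 3.98, and 2 of the 9 were higher in the GFP-Mmi1 IP against its WCE. For example, mei4, which encodes a transcription factor of meiosis, had 21087 and 16894 IP counts with TAP-Mmi1, compared to 204 and 286 in the control.

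UNAAAC motifs were somewhat denser in the members than in other lncRNAs. On their own strand, the 83 placed members had a median of 2.38 per kb and the 1140 other placed lncRNAs 1.85, and on the opposite strand 2.40 and 1.82. At least 1 motif on the own strand was present in 81.9% of the members and 85.3% of the others. Members were shorter, with a median of 855 against 1189 bases, and poorer in GC, at 33.6% against 35.5%. The motifs UUUG, UUGG and UUAG together had medians of 17.9 and 16.7 per kb. These are descriptions without a test.

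Clusters of motifs differed more. A window of 60 bases with at least 3 UNAAAC motifs, all overlaps counted, was found on either strand of 8 placed members (9.64%) and of 20 other lncRNAs (1.75%). Of the 419058 single tiled windows of that length on both strands of the genome 0.0184% hold as many, a share per window that cannot be set against the shares of whole lncRNAs. The 8 are SPNCRNA.500, SPNCRNA.1198, SPNCRNA.1164, SPNCRNA.1397, SPNCRNA.566, SPNCRNA.1356, SPNCRNA.1044 and SPNCRNA.1134, and 6 of them lie opposite coding genes. On the own strand, 4 members (4.82%) and 7 other lncRNAs (0.614%) held a window with at least 3 motifs. On the opposite strand, 4 members (4.82%) and 13 other lncRNAs (1.14%) did. The window of SPNCRNA.1198, SPNCRNA.1164, SPNCRNA.1356 and SPNCRNA.1044 lies on the opposite strand and not on that of the lncRNA. For SPNCRNA.1356 and SPNCRNA.1044, the windows printed above lie in the coding sequences of mcp6 and mcp3. SPNCRNA.1397 and SPNCRNA.566 share 1 window.

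SPNCRNA.500 (chrIII:1728359-1728703, strand +) was the densest member. It held 6 motifs on its own strand in 345 bases, 17.4 per kb, and lies apart. It had 888 IP counts against 256 WCE counts and 707 against 151 with TAP-Mmi1, compared to 0 against 155 and 15 against 143 in the control. Next in density were SPNCRNA.566 at 9.01, SPNCRNA.405 at 8.21, SPNCRNA.279 at 8.09 and SPNCRNA.530 at 6.54 motifs per kb. By number, SPNCRNA.1164 and SPNCRNA.1397 held 11 on their own strand, SPNCRNA.1626 held 10, and SPNCRNA.1134 and SPNCRNA.279 held 8.

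Across the 83 placed members, which share libraries and in part loci, Spearman's rho between the motifs per kb on both strands and the mean ratio was 0.316 for TAP-Mmi1 and -0.324 for GFP-Mmi1. For motifs on the own strand alone it was 0.243 and -0.223. The TAP-Mmi1 ratio chose the members, so these values are a description. With GC content the values were -0.0485 and 0.277. Some members with high TAP-Mmi1 ratios have no motif on their own strand, such as SPNCRNA.475 and SPNCRNA.499. Their control ratios were also among the highest of the members.

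**Figure D5:**
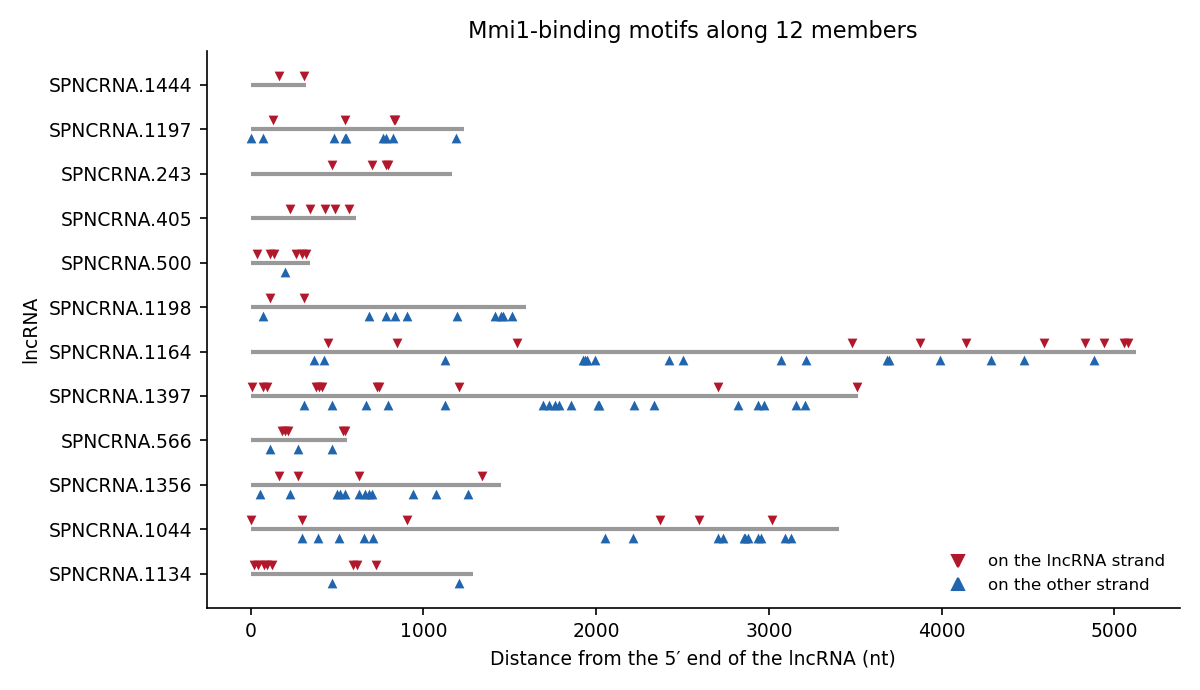
UNAAAC motifs along 12 members, drawn to scale as distance from the 5′ end of the lncRNA in nt. Red triangles above a line are motifs on the strand of the lncRNA and blue triangles below are motifs on the other strand; SPNCRNA.1044 has 6 and 16, and SPNCRNA.405 has 5 and 0.

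Beside the members, the lncRNAs set aside had ratios within the same range, with means of 2.58 for SPNCRNA.103, 2.12 for SPNCRNA.103L, 7.02 for SPNCRNA.130, 15.3 for SPNCRNA.1459 and 2.00 for SPNCRNA.1343 with TAP-Mmi1, and 0.0268 to 0.116 with GFP-Mmi1. UpsnoU14, the feature upstream of snoU14, had 12.8 and 19.3 with TAP-Mmi1, compared to 0.136 and 0.576 in the control. Only SPNCRNA.1444 and SPNCRNA.1197 among the members had higher mean ratios than this feature.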

How the data were processed

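The authors deposited read counts per annotated feature for 8 libraries, without normalization, after demultiplexing with bcl2fastq 2.18.12, adapter trimming with cutadapt 1.15, alignment with Bowtie2 and counting of reads over features. The genome build, annotation and strand setting of the counting are not given in the sources used here. A row that names no feature (0.00177% to 0.0552% of a library) was left out. IP counts were divided by WCE counts of the same strain and replicate number. Ratios are mean ± SD.

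Contrasts were fitted with edgeR 4.0.16 in R 4.3.3 (quasi-likelihood, 4 groups of 2 libraries, filterByExpr, TMM, robust), over 6827 features, at a Benjamini-Hochberg adjusted p under 0.05. SEs were derived from the log2 difference and the F statistic. The replicates are biological duplicates. IP and WCE of 1 strain and number come from 1 culture, since the IP was made from that extract, and their deviations from the group means correlated by 0.0888 and 0.0262; this block was an alternative. Other alternatives were library totals, DESeq2 1.42.0, no filter, no rRNA, each replicate left out in turn, other count minimums and ratios. Leaving out SPNCRNA.1235 and SPNCRNA.504, and choosing members by strand or locus for the control contrast, were added after seeing the data. In simulated data for the control contrast (6823 features), 65 of 100 changes of log2 1 and 100 of 100 of log2 2 were recovered, with 9 false among 174 calls. The simulated control IP had the WCE profile at the full library size, so most features had more counts than in the real control IP. Changed features were also drawn only from those above a count minimum in the control IP. These rates therefore do not describe members with few control counts.

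The members, lists and tests were chosen with earlier results of these data known. Members named in the text were the 10 highest TAP-Mmi1 ratios, the 5 highest and lowest control ratios, the densest and most numerous motifs, the nearest to the threshold, up to 5 largest called differences, the 5 most abundant, those with a name, and others chosen after seeing values. Motifs were counted on ASM294v3 with Python 3.11.15 and pandas 2.3.3. No molecular identifiers were used, so counts can include PCR copies.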

Additional observations from a re-analysis of the deposited data

Results flagged for a closer look

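The IP/WCE difference was larger with TAP-Mmi1 than with GFP-Mmi1 in 72 of 96 members (edgeR interaction, Benjamini-Hochberg adjusted p under 0.05), a difference between strains under 1 contrast that contains the ratio used to choose them. A row that names no feature, used in no comparison, had IP/WCE ratios of 2.10 and 4.39 with TAP-Mmi1, above 0.270 and 0.197 in the GFP-Mmi1 control, from 11339 and 20879 IP counts against 767 and 610.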

How the results depend on the processing

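The number of members depended on scale: 633 lncRNAs exceeded input by CPM outside rRNA and 764 by TMM sizes, against 131 by CPM of the whole library, 33 with a ratio above 2 and 59 outside features covered by the opposite strand. With 1 replicate alone it was between 102 and 147. In the control contrast, library totals gave 0 members higher and 94 lower, and turned the direction of SPNCRNA.475 (-0.81), SPNCRNA.515 (-0.89), SPNCRNA.1651 (-0.99), SPNCRNA.1444 (-3.93), SPNCRNA.1197 (-2.08), SPNCRNA.243 (-2.32), SPNCRNA.405 (-3.96), SPNCRNA.06 (-2.78), SPNCRNA.499 (-1.53), SPNCRNA.1511 (-2.20) and SPNCRNA.1198 (-3.86), because all features then had a median of -5.05. With 1 replicate left out, SPNCRNA.1444 ranged from -8.82, where the only GFP-Mmi1 IP library kept had 0 counts, to 2.06. Leaving out 1 replicate gave 27 to 34 members higher, and the subset outside opposite-strand features 24. With the replicate block (culture), 44 were higher, 43 of them among the 49, beside 8.20% of all features. In the TAP-Mmi1 minus GFP-Mmi1 difference 76 were then higher, beside 15.6% of all features. The block changed the calls of SPNCRNA.1235 and SPNCRNA.504 (log2 7.07 and 7.02) and of no other member given with a test. DESeq2 called 3 members higher and 1 lower between the extracts, and the replicate number as a block called 0. In the TAP-Mmi1 minus GFP-Mmi1 difference, which holds the ratio that chose the members, leaving out 1 replicate gave a difference of medians of 2.56 to 2.87. Motif medians moved by less than 1.5 times under each alternative. Depth limits the control values, since the median member had 28 or 29 counts in those IP libraries.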
